A study of Mus musculus with 15 samples.

Results

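RNA recovered with an antibody against Dnmt1 was compared with RNA recovered with an antibody against 5-methylcytosine (m5C) in mouse tail fibroblast lines of 3 genotypes. Of the 15 libraries of the series, 9 enter this comparison: 6 Dnmt1 RNA immunoprecipitation (RIP) libraries and 3 m5C RIP libraries. The Dnmt1 RIP set holds 2 libraries each from wild type (WT), heterozygous (Het) and homozygous (Hom) lines, and the m5C RIP set holds WT library 2, the Het library and the Hom library. Het and Hom lines carry the Dnmt1 mutation that the series title calls dominant, and the labels do not name the base change. Every line was derived from the tails of littermates of a single sex and grown without a named treatment. WT m5C library 1 was left out because its count is at or above that of the Hom m5C library for 31017 of 31017 genes, that is, it contains the Hom counts. An RNA was taken as a member when it passed the test over the 9 libraries and when, within WT, Het and Hom alike, both Dnmt1 RIP libraries lay on the same side of the m5C RIP library of that genotype. Of 12736 genes tested, 5424 met this rule.

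DNMT1 is the maintenance DNA methyltransferase: it copies cytosine methylation onto the new DNA strand after replication, and it has also been described as an RNA-binding protein. In RNA, 5-methylcytosine is placed by the NSUN family and by TRDMT1, and ALYREF and YBX1 are known to bind it. The antibodies therefore ask different questions, which RNAs are near a chromatin enzyme and which RNAs carry a modified base. Neither set has an input library per genotype.

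The recoveries also differed in how the RNA was prepared. Dnmt1 RIP started from cells fixed in 1% formaldehyde, whereas m5C RIP started from messenger RNA isolated on oligo-dT beads. The Het and Hom m5C tables also end in 5 entries for reads in no gene, a layout that the Dnmt1 RIP tables and WT m5C library 2 do not share. Antibody, fixation and RNA selection cannot be told apart in this design. The layout differs between antibodies in Het and Hom and not among the 3 WT libraries, whose values are given beside the others below. Separate cultures or animals behind the libraries of a genotype are not stated. The p-values then reflect only how far these libraries differ among themselves, and that difference may be technical. Gene totals were low, from 217000 to 1360000 counts in Dnmt1 RIP and from 726000 to 2160000 in m5C RIP. At the shallowest library, Dnmt1 RIP WT 1, 3 counts equal 13.8 CPM, the count scaled to the library's total. In Dnmt1 RIP, 5.7 to 63.5% of counts lay in 4 dominant transcripts, Lars2, Gm42418, Gm26917 and Gm10800, against 4.01 to 5.52% in m5C RIP, and marker levels are given with these left out of the totals.

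Marker genes were checked before the comparison, because the labels give fibroblasts for all 9 libraries. In the Dnmt1 RIP libraries the 15 neuron markers stood at a median of 39.3 to 64.8% of their mean level in the cortex m5C libraries of the series, against 6.35 to 12.4% in the fibroblast m5C libraries. The 15 astrocyte and oligodendrocyte markers stood at 39 to 57.8% against 7.06 to 10.1%. No member of either list was at 0 in any Dnmt1 RIP library. The 15 fibroblast markers stood at 9.3 to 75.9% of their mean fibroblast m5C level in Dnmt1 RIP, highest in Het 1, and the 14 macrophage markers stood at 1.11 to 54.8%, highest in Het 2. Fibroblast markers at 0 were Twist1 and Twist2 in WT 1, S100a4 in WT 2, and S100a4 and Twist2 in Hom 1. Across 13934 genes, Spearman's rho with the mean cortex m5C profile was 0.733 to 0.803 in Dnmt1 RIP and 0.509 to 0.548 in fibroblast m5C RIP, as a description only. The fibroblast input library of the series, outside this comparison, held neuron markers at 22.7% and astrocyte and oligodendrocyte markers at 12.1% of cortex. Its fibroblast markers stood at 5.84% and its macrophage markers at 1.72% of fibroblast m5C levels, with 6006 genes detected from 228852 counts. In that library 58.4% of counts lay in the dominant transcripts. At 0 in it were 6 of 15 fibroblast, 6 of 14 macrophage, 4 of 15 neuron and 7 of 15 astrocyte and oligodendrocyte markers. Low fibroblast markers, and neuron markers above the m5C level, were thus also read in this input, but it is a single sparse library. Dnmt1 RIP exceeded fibroblast m5C RIP in other lists too. Without the dominant transcripts, 10 keratinocyte markers summed to 98.3 to 231 CPM in Dnmt1 RIP. Their sum was 28.9 to 42.3 CPM in fibroblast m5C RIP and 19.7 to 34.1 CPM in cortex m5C RIP. The 8 endothelial markers summed to 165 to 276, 76.4 to 96.2 and 135 to 168 CPM in this order. Of 6 skeletal muscle markers tested, 3 passed as higher in Dnmt1 RIP and 0 in m5C RIP. In WT 1, 6 keratinocyte markers were at 0. The Dnmt1 RIP libraries go against their tissue label in these markers, and they are called by their labels below. The part of this difference in the results was not tested. In libraries of bulk RNA, fewer cells of a type and less RNA per cell cannot be told apart.

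**Figure D1:**
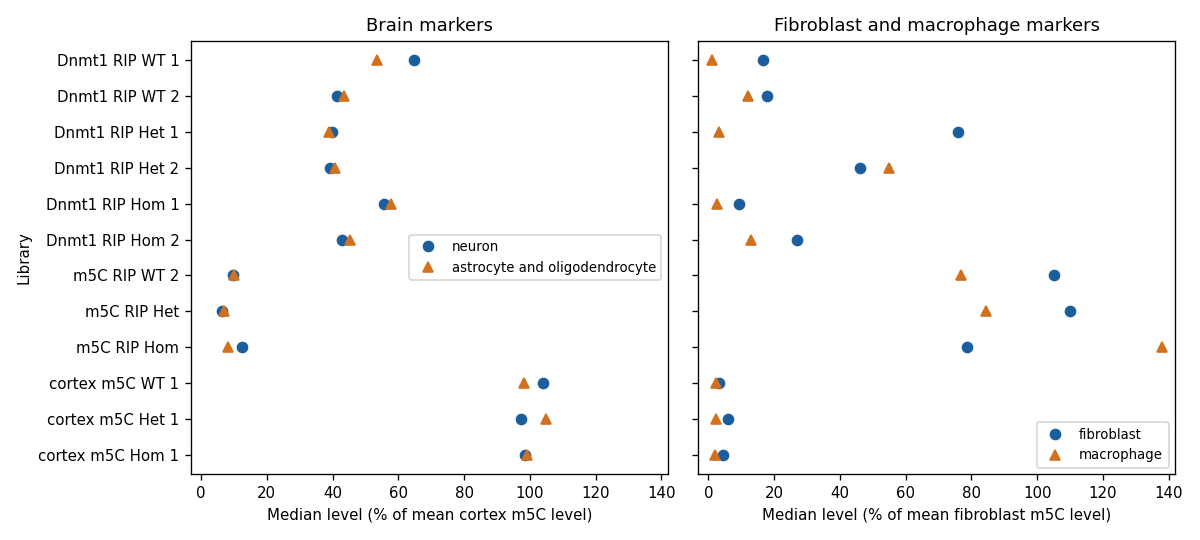
Median level of 4 marker lists in each library (rows), as a percentage of the mean level in the cortex m5C libraries (left, brain markers) or in the 3 fibroblast m5C libraries compared (right). All 6 Dnmt1 RIP libraries lie between 39 and 64.8% for both brain lists, above the fibroblast m5C libraries and below the cortex libraries.

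The antibodies gave different RNA profiles. With edgeR's quasi-likelihood test and genotype as a block, 2925 genes were higher in Dnmt1 RIP (23% of those tested) and 2958 were higher in m5C RIP (23.2%) at a Benjamini-Hochberg adjusted p under 0.05, or 46.2% in either direction. Of these, 2644 (20.8% of genes tested) and 2780 (21.8%) held their side within every genotype, 42.6% together. All 6 Dnmt1 RIP libraries lay above all 3 m5C libraries for 2528 tested genes (19.8%) and below them for 2813 (22.1%). Among the genes that differed in every genotype, 838 were at least 4-fold higher in Dnmt1 RIP and 825 at least 4-fold higher in m5C RIP. The median log2 fold change over all tested genes was 0.02. Scaling by total counts alone moved that median to 0.175 and left 1718 genes higher in m5C RIP and 2475 higher in Dnmt1 RIP, so that 59% of calls were higher in Dnmt1 RIP against 49.7%. Each m5C library carries weight: without WT 2 the counts fell to 1515 higher in Dnmt1 RIP and 1781 higher in m5C RIP, without Het to 1824 and 2417, and without Hom to 1612 and 1997.

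**Figure D2:**
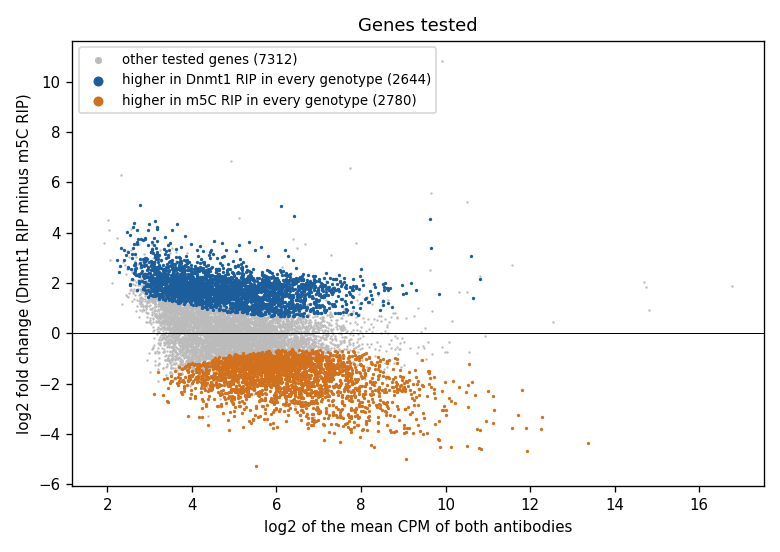
Each point is a tested gene, placed by the log2 of its mean CPM over both antibodies and by its log2 fold change (Dnmt1 RIP minus m5C RIP). The 2644 genes higher in Dnmt1 RIP in every genotype (blue) and the 2780 higher in m5C RIP (orange) lie on both sides of 0, and the coloured gene with the highest mean, Col1a1, is on the m5C side.

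Among the RNAs highest in Dnmt1 RIP relative to m5C RIP were several of low abundance in fibroblast m5C RIP. Levels are CPM scaled by the trimmed mean of M-values (TMM). Slc34a2, a sodium-phosphate cotransporter (chr5:53038081-53071664 on mm10, plus strand), ranged from 7.03 to 428 CPM in Dnmt1 RIP with a median of 55.6, and was 2.70, 4.94 and 2.94 CPM in the WT, Het and Hom m5C libraries. All 6 Dnmt1 RIP libraries were above all m5C libraries, and the log2 fold change was 5.05 ± 1.20 (SE, edgeR adjusted p = 0.00531). Without m5C WT 2 its adjusted p was 0.0511. The next in size was Hrh2, a histamine receptor, at 11.1 to 861 CPM (median 21.9) against 1.80, 3.46 and 4.40 CPM, a log2 fold change of 4.68 ± 1.37 (edgeR adjusted p = 0.0154). The groups did not overlap, but a single library, Dnmt1 RIP WT 2, held the value of 861 and the others reached at most 68.5. Without m5C WT 2 the adjusted p of Hrh2 was 0.131.

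Chd9, a chromatin remodelling helicase (chr8:90828352-91054516 on mm10), split the Dnmt1 RIP libraries by number. It stood at 2394, 4695 and 1720 CPM in the WT, Het and Hom libraries numbered 1, and at 163, 98.5 and 156 CPM in those numbered 2. The m5C libraries held 47.8, 53.9 and 76.3 CPM. Every Dnmt1 RIP library was above every m5C library, while the log2 fold change was 5.67 with the libraries numbered 1 alone and 1.29 with those numbered 2 alone, against 4.55 ± 1.32 with all (edgeR adjusted p = 0.0147). The adjusted p of Chd9 passed 0.05 without Dnmt1 RIP Hom 1 (0.0507) and without each of m5C WT 2 (0.0791), Het (0.0733) and Hom (0.0519).

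Smaller differences were seen for transcripts known from the nervous system. Cntnap3, a contactin-associated cell adhesion protein, was 7.08 to 45.3 CPM (median 29.6) in Dnmt1 RIP and 1.80, 0.99 and 2.94 CPM in m5C RIP (log2 fold change 3.85 ± 0.69, edgeR adjusted p = 0.00122). Bc1, a short noncoding RNA of neurons that represses translation in dendrites, was 16.1 to 70.8 CPM (median 45.6) against 3.61, 1.98 and 4.40 CPM, without overlap. Its log2 fold change was 3.68 ± 0.64 (edgeR adjusted p = 0.001), with 3.85, 4.01 and 3.05 within WT, Het and Hom. The cortex m5C libraries held a mean of 315 CPM of Bc1. The other genes of this set were Rimbp3, the transcription factor Mafa, Pnck, Frmpd2, Fbll1, Rundc3b and the liver enzyme gene Tat, with log2 fold changes of 3.52 to 4.34. The adjusted p of Mafa was 0.0888 without m5C Het and 0.0869 without m5C Hom. Mafa held its side in Het only narrowly: Dnmt1 RIP Het 2 had 1 count (1.00 CPM) and m5C Het had 2 counts (0.99 CPM). In m5C RIP, Mafa, Frmpd2 and Tat were at 0 in Hom, and Rimbp3 was at 0 in Het. The size of these 4 differences thus rests on m5C values near 0.

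The Bc1 sequence is shown because this RNA carries an internal run of adenosines, a feature that bears on selection with oligo-dT. It is 168 bases long, at chr7:144914470-144914637 on the plus strand of mm10 (GENCODE M21), and the capitals mark the window of 30 bases with the most A (28 of 30, positions 77 to 106).
Bc1: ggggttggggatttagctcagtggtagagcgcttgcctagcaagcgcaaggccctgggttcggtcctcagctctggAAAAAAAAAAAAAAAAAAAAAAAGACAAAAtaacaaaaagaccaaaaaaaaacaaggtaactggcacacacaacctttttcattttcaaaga
The A-rich run lies inside the transcript, not at its end. Whether it affected the recovery of Bc1 was not tested.

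The RNAs highest in m5C RIP were mostly abundant transcripts of the matrix and of stromal or immune cells. Plp2, a membrane protein (chrX:7667941-7671390 on mm10), was 99.2, 81.5 and 86.6 CPM in the WT, Het and Hom m5C libraries and 0 to 7.58 CPM (median 1.00) in Dnmt1 RIP, with 3 of 6 libraries at 0. Its log2 fold change was -5.28 ± 0.53 (edgeR adjusted p = 0.000178). Cebpb, a transcription factor of inflammatory responses, was 1167, 583 and 1259 CPM against 0 to 267 CPM (median 33.9), a log2 fold change of -5.01 ± 1.02 (edgeR adjusted p = 0.0023). For both genes the groups did not overlap. Thbs1, a matricellular glycoprotein, stood at 3786, 4226 and 2477 CPM in m5C RIP and at 49.3 to 445 CPM (median 127) in Dnmt1 RIP. It fell by 4.59 on the log2 scale in Dnmt1 RIP relative to m5C RIP, with an SE of 0.50 (edgeR adjusted p = 0.000178).

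Col1a1, the main chain of type I collagen (chr11:94936224-94953042 on mm10), was the most abundant of these. Its m5C levels were 21447, 16430 and 17664 CPM, and its Dnmt1 RIP levels ran from 117 to 11245 CPM with a median of 899. The highest Dnmt1 RIP value came from Het 1, which was also the library with the highest fibroblast markers. The log2 fold change was -4.35 ± 1.06 (edgeR adjusted p = 0.00613) over all libraries, and -5.63, -1.20 and -4.77 within WT, Het and Hom. For Col1a1, the adjusted p was 0.0684 without m5C WT 2 and 0.0538 without m5C Hom. The remaining named RNAs were Bgn, Spp1, Ptx3, Thbs4, Lox, Igfbp4, Fcer1g and Serpinf1, secreted matrix and immune proteins apart from the Fc receptor chain Fcer1g, with log2 fold changes of -4.68 to -4.25.

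**Figure D3:**
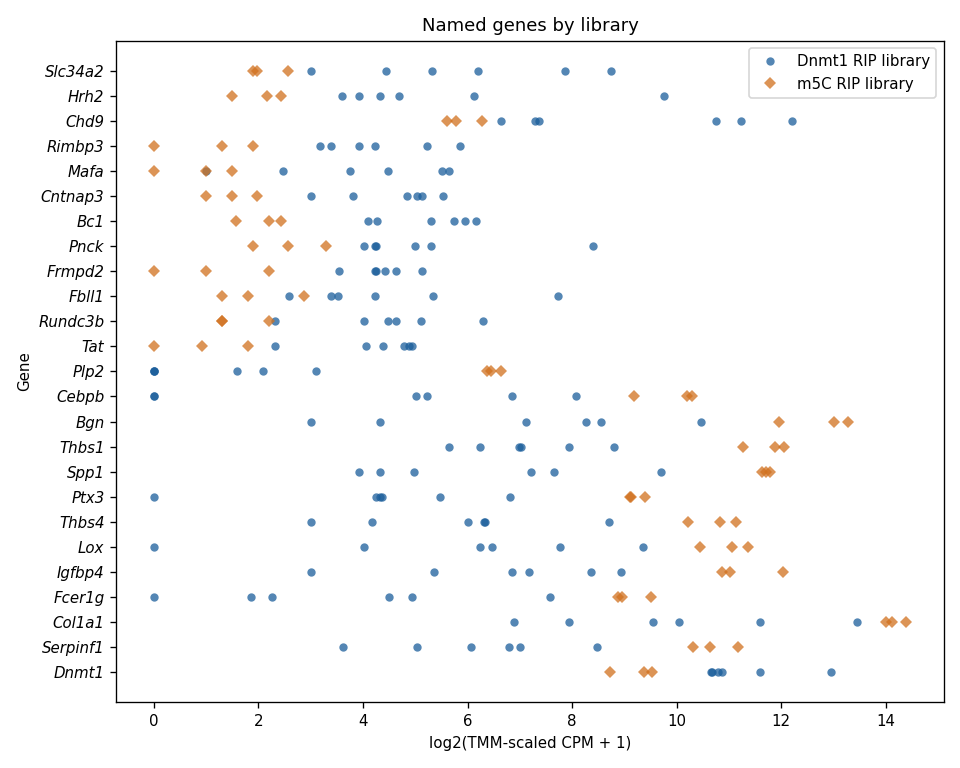
TMM-scaled CPM of the 24 named genes and Dnmt1 on a log2(CPM + 1) axis, with 1 point per library: 6 Dnmt1 RIP libraries (blue circles) and 3 m5C RIP libraries (orange diamonds). For Col1a1 the Dnmt1 RIP points run from 117 to 11245 CPM and the m5C points from 16430 to 21447 CPM.

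Transcripts of Dnmt1 itself were higher in Dnmt1 RIP. Dnmt1 (chr9:20907209-20959888 on mm10, minus strand) ranged from 1615 to 7931 CPM in Dnmt1 RIP, with a median of 1814, and was 664, 423 and 740 CPM in the WT, Het and Hom m5C libraries. All 6 libraries were above all 3, and the highest was Hom 2, with the next, WT 2, at 3090 CPM. With the dominant transcripts left out, Dnmt1 was 2048 to 10154 CPM in Dnmt1 RIP and 413 to 735 CPM in m5C RIP. On that scale it was 1640 CPM in the fibroblast input, 1212 CPM in the cortex input and a mean of 1372 CPM in cortex m5C RIP. Recovery relative to input was not tested. The log2 fold change was 2.17 ± 0.60 (edgeR adjusted p = 0.0116), with 1.90, 1.94 and 2.71 within WT, Het and Hom. The adjusted p of Dnmt1 was 0.0585 without m5C WT 2 and 0.0938 without m5C Hom. Adding m5C WT 1, which contains the Hom counts, gave a log2 fold change of 0.76 (adjusted p = 0.552): that library holds 8582 Dnmt1 counts against 504 in Hom. An mRNA count does not show whether the mutation changed the protein.

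Genes of DNA methylation, Dnmt1 included, were called in both directions. Of 20 tested members of this list, 7 rose (35%, against 23% of all tested genes) and 4 fell (20%, against 23.2%) in Dnmt1 RIP relative to m5C RIP, with a list median of 0.20 against 0.02 for all genes. Dnmt3a, a de novo methyltransferase gene, was 127 to 191 CPM (median 138) against 57.7, 71.2 and 103 CPM, a log2 fold change of 0.97 ± 0.28 (edgeR adjusted p = 0.0132). Its relative Dnmt3b (1.95 ± 0.55), the dioxygenases Tet1 (1.71 ± 0.40) and Tet2 (1.44 ± 0.34) and the glycosylase Mbd4 (1.34 ± 0.50) also rose. Pcna, the sliding clamp that recruits DNMT1 to replication forks, was 145, 121 and 145 CPM in m5C RIP and 18.4 to 49.6 CPM (median 32.0) in Dnmt1 RIP, a log2 fold change of -2.12 ± 0.29 (edgeR adjusted p = 0.000428). Mbd3, Trim28 and Zbtb38 fell as well, by 1.32, 1.35 and 0.66. Uhrf1, the partner of DNMT1 at hemimethylated DNA, read -0.43 and did not pass (edgeR adjusted p = 0.389).

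Genes that write or read m5C in RNA were called at about the rate of all genes in the m5C direction. Of 13 tested members, 0 were higher in Dnmt1 RIP and 3 were higher in m5C RIP (23.1%, against 23.2% of all tested genes), namely Alyref, Nsun2 and Srsf2. The list median was 0.49, with 0.63, -0.31 and 0.99 within WT, Het and Hom. In the Dnmt1 RIP direction 1 member reached an unadjusted p under 0.05, and DESeq2 called 0 there and 3 in the m5C direction. Alyref, an mRNA export adaptor, was 104, 99.8 and 99.8 CPM in m5C RIP and 36.0 to 49.6 CPM (median 38.7) in Dnmt1 RIP, so the groups were far apart relative to their spread. Its log2 fold change was -1.33 ± 0.23 (edgeR adjusted p = 0.000984). Nsun2, a methyltransferase of tRNA and mRNA, read -1.29 ± 0.31, and its adjusted p of 0.00584 rose to 0.0596 without m5C WT 2. The call of Srsf2 (-0.94 ± 0.34, adjusted p = 0.0378) was lost when any of the 3 m5C libraries was left out, at an adjusted p of 0.0753 to 0.168. It was also lost without Dnmt1 RIP WT 1 (0.0715), Het 2 (0.0564) or Hom 2 (0.0936).

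Long genes of neuronal adhesion and synapses were higher in Dnmt1 RIP as a group. Of 65 members, all tested, 59 rose (90.8%, against 23% of all tested genes) and 0 fell (against 23.2%). In every genotype 57 rose (against 20.8% of all tested genes), and the list median was 1.91. Within WT, Het and Hom its medians were 1.90, 2.04 and 1.79. In the m5C direction 0 members of this list reached an unadjusted p under 0.05 with edgeR, and DESeq2 called 0. The same holds for the Dnmt1 RIP direction of the matrix, actin, lysosome, macrophage, ribosome, respiratory chain and proteasome lists below. Grm5, a metabotropic glutamate receptor, was 87.4 to 155 CPM (median 112) against 24.3, 17.8 and 20.5 CPM, a log2 fold change of 2.43 ± 0.28 (edgeR adjusted p = 0.000199). The splicing regulator Rbfox1 was 98.4 to 156 CPM (median 118) against 29.8, 25.2 and 26.4 CPM, a log2 fold change of 2.15 ± 0.28. Opcml and the potassium channel gene Kcnma1 rose by 1.96 and 2.20. All 4 were more abundant still in cortex m5C RIP, at means of 295 to 562 CPM. The neuron markers moved beside this list: 15 of 15 rose in every genotype, and their summed level was 3210 to 4720 CPM against 708 to 1300 CPM. Of the glial markers 13 of 15 rose (86.7%, against 23% of all tested genes). Their summed level, with the dominant transcripts left out, was 2560 to 4100 CPM against 492 to 804 CPM. The part of the brain markers in these differences was not tested.

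Genes hardly present in cortex were looked at separately for this reason. Those under 5 CPM in cortex m5C RIP made up 12.9% of the genes higher in Dnmt1 RIP in every genotype (341 of 2644), 12.6% of those higher in m5C RIP (350 of 2780) and 12.6% of all tested genes (1599 of 12736). Their median log2 fold change was 0.50 in the main fit, against 0.02 for all tested genes. A fit to such genes alone, added after the data were seen, tested 1421 genes. TMM scaling was recomputed on these genes alone, which bears on the balance of the calls, and the median in this fit was 0.18. It called 362 higher in Dnmt1 RIP and 328 higher in m5C RIP, of which 289 and 306 in every genotype.

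Olfactory and vomeronasal receptor genes are such a group. Their loci are normally read in sensory epithelium, and the values concern low counts spread over many members. Of 1092 olfactory receptor genes only 19 were tested, so all members were summed. The sum was 3440 to 6390 CPM in Dnmt1 RIP (median 4410) and 1330, 1300 and 1380 CPM in the WT, Het and Hom m5C libraries. The 327 vomeronasal receptor genes summed to 1110 to 1970 CPM against 408, 355 and 376 CPM. With the 4 dominant transcripts left out of the totals, the olfactory sum was 4500 to 8960 CPM in Dnmt1 RIP, 1270 to 1370 CPM in fibroblast m5C RIP and 150 to 627 CPM in cortex m5C RIP. The cortex libraries were thus the lowest for these genes, unlike for the neuron markers. Members of both families share sequence, so counts of single genes are uncertain.

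Genes of germ cells, kept silent by DNA methylation in somatic cells, were also low. Of 25 members 9 passed the filter on low counts, and the sum over all 25 was 314 to 587 CPM in Dnmt1 RIP, 84.6 to 95.3 CPM in fibroblast m5C RIP and 247 to 292 CPM in cortex m5C RIP, with the dominant transcripts left out. Zbtb16, a transcription factor of spermatogonial stem cells that other tissues also express, was 65.3 to 126 CPM (median 91.0) against 18.9, 15.3 and 17.6 CPM. Its log2 fold change was 2.47 ± 0.32 (edgeR adjusted p = 0.000313). With the dominant transcripts left out, Zbtb16 was 85.6 to 160 CPM in Dnmt1 RIP and a mean of 224 CPM in cortex m5C RIP. This member thus holds a large part of both sums.

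Imprinted genes, expressed from 1 parental allele under the control of DNA methylation, had 27 tested members, with a median of 1.22. Higher in Dnmt1 RIP were 15 (55.6%, against 23% of all tested genes), and 6 were lower (22.2%, near the 23.2% of all). Zdbf2 was 47.4 to 110 CPM (median 65.1) against 18.9, 6.42 and 25.0 CPM, a log2 fold change of 2.21 ± 0.35 (edgeR adjusted p = 0.000649). Peg3 (1.57 ± 0.30), Nnat (1.81 ± 0.36), Mest (1.68 ± 0.36) and Ube3a (1.35 ± 0.31) also rose. Grb10, an adaptor that restrains growth signals, was 272, 265 and 189 CPM in m5C RIP and 22.7 to 87.4 CPM (median 49.4) in Dnmt1 RIP, a log2 fold change of -2.33 ± 0.28 (edgeR adjusted p = 0.000256). H19 and Dlk1 fell by 2.07 and 1.61. With the dominant transcripts left out, all 35 imprinted genes summed to 4870 to 7900 CPM in Dnmt1 RIP. The sum was 2300 to 2670 CPM in fibroblast m5C RIP and 8620 to 10300 CPM in cortex m5C RIP. The cortex libraries were thus the highest, like for the neuron markers, and the part of brain expression was not tested. The direction of the median rests on members that overlap a gene on the other strand: without such genes it was -0.26. Whether strand was used in counting is not stated, so reads of overlapping partners such as Airn and Igf2r cannot be told apart.

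Long noncoding RNAs of the nucleus went both ways, with 6 of 14 tested members higher in Dnmt1 RIP (42.9%, against 23% of all tested genes) and 4 higher in m5C RIP (28.6%, near the 23.2% of all). Kcnq1ot1, which silences its imprinted neighbours, was 236 to 343 CPM (median 259) against 85.6, 61.3 and 95.4 CPM, a log2 fold change of 1.76 ± 0.29 (edgeR adjusted p = 0.000848). Miat (1.99 ± 0.36), Meg3 (1.41 ± 0.49) and Mirg (1.38 ± 0.30) rose as well. Tug1, Pvt1 and the paraspeckle scaffold Neat1 were higher in m5C RIP, with log2 fold changes of -0.91, -0.99 and -1.34. Malat1, also a nuclear RNA, read 0.44 and did not pass (edgeR adjusted p = 0.552). With the dominant transcripts left out, all 20 members of this list summed to 9550 to 19700 CPM in Dnmt1 RIP. Their sum was 6590 to 6880 CPM in fibroblast m5C RIP and 24200 to 31700 CPM in cortex m5C RIP. Here too the part of brain expression was not tested. Xist, which coats the inactive X chromosome, was 13.1 to 39.5 CPM against 9.02, 3.95 and 4.40 CPM, and the Y-linked Ddx3y was 20.8 to 59.3 CPM against 73.0, 91.4 and 67.5 CPM, so both antibodies recovered reads of both genes in every library.

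Messenger RNAs of the extracellular matrix were lower in Dnmt1 RIP almost throughout. Of 37 tested members 33 were higher in m5C RIP (89.2%, against 23.2% of all tested genes) and 0 higher in Dnmt1 RIP (against 23%). The list median was -3.01. Fn1, fibronectin, was 1564, 2940 and 1086 CPM in m5C RIP and 74.4 to 424 CPM (median 156) in Dnmt1 RIP, a log2 fold change of -3.25 ± 0.38 (edgeR adjusted p = 0.000229). Thbs2 and the fibulin gene Fbln1 read -3.24 ± 0.34 and -2.77 ± 0.31. Among 22 collagen genes 15 were higher in m5C RIP (68.2%), Col6a2 (-4.02 ± 0.40) and Col6a1 (-3.97 ± 0.42) with the smallest p. Higher in Dnmt1 RIP were 2 (9.09%), Col7a1 (1.15 ± 0.38) and Col15a1 (1.44 ± 0.48). Of the fibroblast markers, 11 of 13 tested were higher in m5C RIP (84.6%), and Fap, an activation marker, was higher in Dnmt1 RIP (1.81 ± 0.54).

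The contractile and secretory machinery followed the matrix. Of 33 actin cytoskeleton and contractile genes 28 were higher in m5C RIP (84.8%, against 23.2% of all tested genes). In Dnmt1 RIP 0 were higher (against 23%), and the median was -2.32. The intermediate filament gene Vim was 3181, 2719 and 1877 CPM against 167 to 557 CPM (median 347), a log2 fold change of -2.92 ± 0.40 (edgeR adjusted p = 0.000401). All 26 lysosomal and secretory genes were higher in m5C RIP, with a median of -2.57. Lamp2, a lysosomal membrane protein, was 480, 534 and 542 CPM against 35.4 to 121 CPM (median 54.6). The translocon gene Sec61a1 and the chaperone gene Pdia4 read -2.40 ± 0.25 and -2.50 ± 0.26. Of 14 macrophage markers 13 were also higher in m5C RIP (92.9%, median -3.51). Cd68, a scavenger receptor gene, was 215, 253 and 377 CPM in m5C RIP and 2.63 to 92.4 CPM (median 11.2) in Dnmt1 RIP. With the dominant transcripts left out, the macrophage markers summed to 171 to 5730 CPM in Dnmt1 RIP and 8040 to 15000 CPM in m5C RIP, and the fibroblast markers to 1150 to 23100 CPM and 29800 to 35400 CPM. Their part in the lower matrix levels was not tested.

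Genes of the ribosome and of energy metabolism, used by all cell types, were lower in Dnmt1 RIP too. Of 81 tested cytosolic ribosomal protein genes 71 were higher in m5C RIP (87.7%, against 23.2% of all tested genes). In Dnmt1 RIP 0 were higher (against 23%). The median was -1.91, and -2.02, -1.52 and -2.10 within WT, Het and Hom. Rpl7a was 500, 443 and 517 CPM in m5C RIP and 81.5 to 187 CPM (median 96.7) in Dnmt1 RIP, a log2 fold change of -2.19 ± 0.32 (edgeR adjusted p = 0.000475). Ribosomal protein genes have many pseudogenes, so their single counts are uncertain. The respiratory chain genes of the nucleus (53 of 76 higher in m5C RIP, 69.7%, median -1.17) and the proteasome (25 of 31, 80.6%, median -0.97) had 0 members higher in Dnmt1 RIP. The mitochondrial ribosome had 19 of 74 higher in m5C RIP (25.7%, near the 23.2% of all tested genes) and 0 higher in Dnmt1 RIP, with a median of -0.77. For 12 mitochondrially encoded genes edgeR made 0 calls in either direction. The member with the smallest p, the ATP synthase subunit gene mt-Atp6, read -1.32 ± 0.62 (edgeR adjusted p = 0.0965).

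Translation factors followed the ribosome, with exceptions. Of 36 members 26 were higher in m5C RIP (72.2%, against 23.2% of all tested genes). Among them was Eef1b2, an elongation factor subunit, at 1190, 940 and 1060 CPM against 94.8 to 254 CPM (median 168). Only Eif4a2 was higher in Dnmt1 RIP (1.70 ± 0.59, edgeR adjusted p = 0.0328). Eif4g2, a scaffold of cap-independent initiation, split the Dnmt1 RIP libraries: it was 6089, 3839 and 7328 CPM in WT 2, Het 1 and Hom 2, and 312, 281 and 296 CPM in WT 1, Het 2 and Hom 1. The m5C libraries held 615, 638 and 509 CPM, between these sets, and the gene did not pass (edgeR adjusted p = 0.116). The RNA-binding protein genes Hnrnpa2b1 and Ybx1 showed the same split, and these 3 were chosen after their values were seen. In all, 105 tested genes were at least 2-fold higher in each of WT 2, Het 1 and Hom 2 than in any other Dnmt1 RIP library, and 10 showed the opposite split. By number, 129 genes were so split with the libraries numbered 2 higher and 11 with those numbered 1 higher.

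Among genes of glycolysis, isoforms of the same enzyme went in different directions. Of 17 members 11 were higher in m5C RIP (64.7%, against 23.2% of all tested genes). Ldha was 636, 642 and 662 CPM against 42.5 to 178 CPM (median 86.4), a log2 fold change of -2.79 ± 0.35 (edgeR adjusted p = 0.000294). The 4 members higher in Dnmt1 RIP (23.5%, near the 23% of all tested genes) were Aldoc, Eno2, Pfkp and Pfkm. Of these, Aldoc and Eno2 are the aldolase and enolase of brain. Eno2 was 182 to 343 CPM (median 225) against 106, 57.8 and 82.2 CPM, while its widespread counterpart Eno1 was 138 to 330 CPM (median 231) against 824, 829 and 665 CPM. Immediate early genes, switched on within minutes of a stimulus, gave 15 of 22 higher in m5C RIP (68.2%, against 23.2% of all tested genes). Of these, 8 held in every genotype (against 21.8% of all tested genes), and 3 members were higher in Dnmt1 RIP (13.6%, against 23%). The list median was -1.51, with -1.96, -0.16 and -2.17 within WT, Het and Hom. Jun was 171, 181 and 291 CPM against 42.1 to 83.4 CPM (median 56.8), whereas Nr4a2 and Nr4a3 rose by 2.14 and 2.46 in Dnmt1 RIP.

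**Figure D4:**
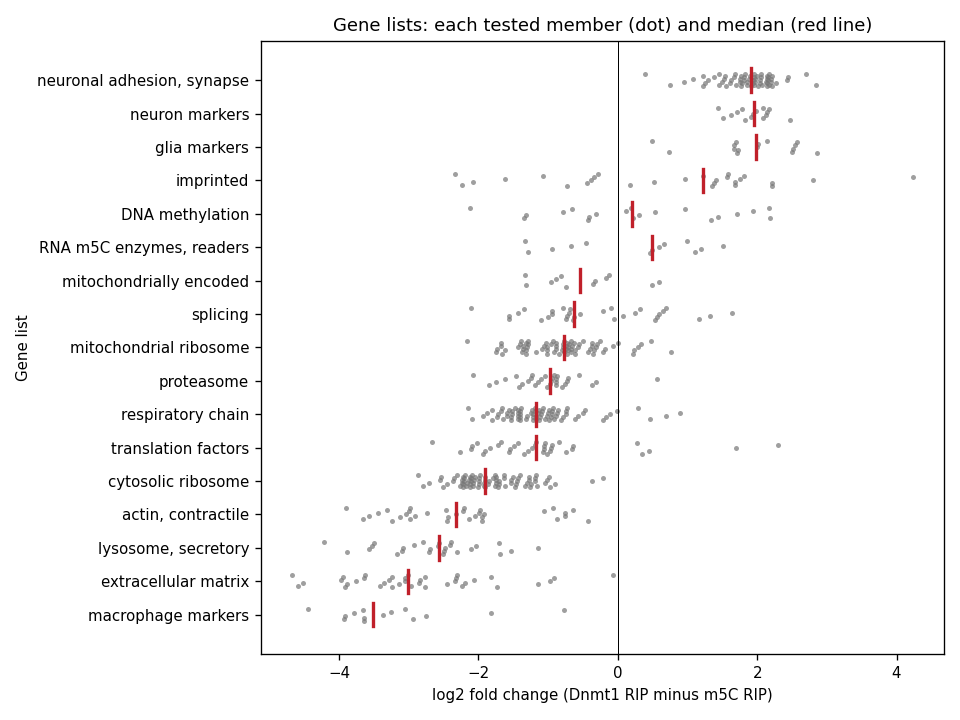
Log2 fold change (Dnmt1 RIP minus m5C RIP) of each tested member of 17 gene lists (grey dots) with the list median (red lines), ordered by role. The neuronal and glial lists lie on the positive side with medians of 1.91 to 1.99, and the ribosome, matrix, lysosome and macrophage lists lie on the negative side with medians down to -3.51.

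Replication-dependent histone genes, whose mRNAs normally end in a stem-loop in place of a poly(A) tail, were mostly below the filter on low counts. Of 67 genes 9 were tested, and 2 were called in each direction (22.2%, near the 23% and 23.2% of all tested genes). Hist1h4d was 18.1 to 42.5 CPM (median 33.7) in Dnmt1 RIP and 5.41, 7.41 and 7.34 CPM in m5C RIP, a log2 fold change of 2.15 ± 0.43 (edgeR adjusted p = 0.00223). Hist1h3e also rose (2.35 ± 0.76), and lost its call when any of the 3 m5C libraries was left out (edgeR adjusted p = 0.0873 to 0.121). Hist1h1c was higher in m5C RIP at 351, 334 and 596 CPM against 24.8 to 149 CPM (median 54.5), a log2 fold change of -2.90 ± 0.44 (edgeR adjusted p = 0.000557), and Hist1h2bc read -2.32 ± 0.45. The sum over all 67 genes was 326 to 613 CPM in Dnmt1 RIP and 529 to 872 CPM in m5C RIP, with overlapping ranges, dominant transcripts left out.

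The stem-loops are shown, with 5 bases on either side, because they mark mRNAs made without a poly(A) tail. Capitals mark the match on the transcript strand (GENCODE M21), a stem of GGCTCT with AGAGCC or of GGCCCT with AGGGCC around the loop TTTN.
Hist1h4d: ccaaaGGCCCTTTTCAGGGCCactac
Hist1h3e: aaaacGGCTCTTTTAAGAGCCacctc
Hist1h1c: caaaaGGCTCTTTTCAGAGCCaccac
The motif was present in genes of both directions, and no match was found in the annotated transcript of Hist1h2bc. Of 12651 tested genes with a transcript, 9 (0.0711%) held one. In Hist1h1c the annotated transcript runs on for 840 bases after the motif and in Hist1h4d for 770, so the annotation extends past the stem-loop in genes of either direction.

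The length of the gene, which the rule did not use, ran with the direction of the difference. Genes higher in Dnmt1 RIP in every genotype had a median genomic span of 63.5 kb, those higher in m5C RIP 16.5 kb, and all tested genes 28.6 kb. Their exons summed to medians of 6.79, 3.49 and 5.04 kb. Of the genes higher in Dnmt1 RIP, 20% spanned over 200 kb, against 1.34% of those higher in m5C RIP and 7.17% of all tested genes. With the tested genes in 10 equal groups by span, the median log2 fold change went from -0.88 in the shortest to 1.28 in the longest. In the longest group, from 155 kb up, 53.8% of genes were higher in Dnmt1 RIP in every genotype and 4.98% were higher in m5C RIP. Among genes under 5 CPM in cortex the spans were 32.2, 12 and 21.4 kb, in the same order. Neuronal genes are often long, and length and brain expression were not separated beyond this.

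**Figure D5:**
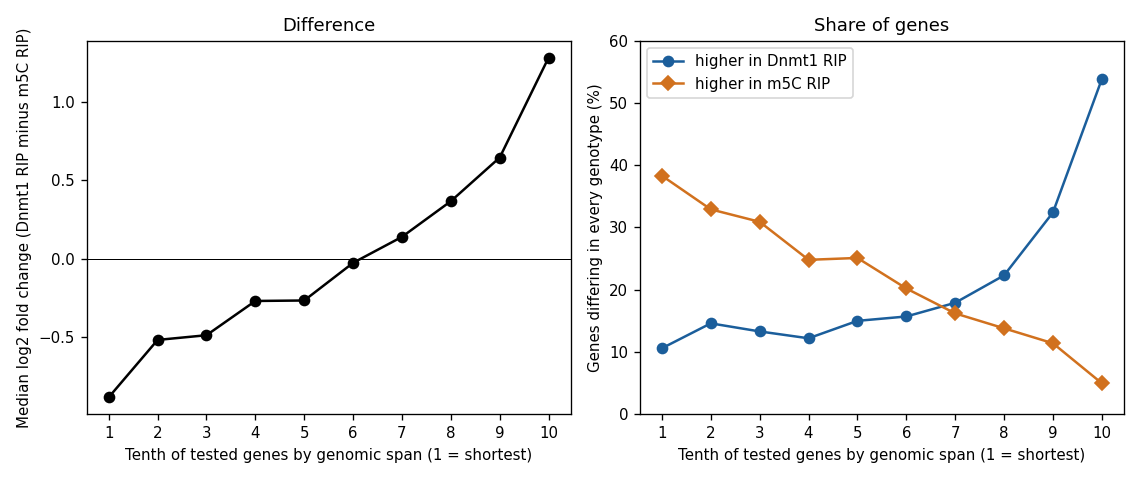
Tested genes in 10 equal groups by genomic span (1 is the shortest). The left panel gives the median log2 fold change (Dnmt1 RIP minus m5C RIP), from -0.88 to 1.28, and the right panel the percentage of genes that differed in every genotype, which reaches 53.8% for Dnmt1 RIP in the longest group.

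Sequence motifs of the m5C writers differed little between the sets. The letters searched were CNGGG, known for NSUN2 sites, and CTCCA, known for NSUN6 sites, in the longest annotated transcript of each gene of at least 500 bases, on the transcript strand only. CNGGG occurred at a median of 5.46 per kb in genes higher in m5C RIP, 4.85 per kb in genes higher in Dnmt1 RIP and 4.95 per kb in all tested genes, and 99.6, 99.9 and 99.8% of their transcripts held it. CTCCA occurred at 1.59, 1.73 and 1.63 per kb and was held by 93.9, 99.3 and 97.3%. Transcripts higher in m5C RIP were shorter, with a median of 2756 bases against 4906, and a match is not a modified site.

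Within a single genotype edgeR called 0 genes, whereas DESeq2 called some. The edgeR fit had 6 groups, and its spread rests on the 3 Dnmt1 RIP pairs. The lone m5C library of a genotype was assumed to vary like those. At an unadjusted p under 0.05, WT had 1758 genes higher and 1963 lower in Dnmt1 RIP. Het had 1563 and 1242, and Hom had 1528 and 1777. No adjusted p went below 0.0608 in WT, 0.126 in Het or 0.0757 in Hom. With DESeq2, an alternative added later, 180 genes were called higher and 528 lower in WT. For Het it called 138 and 96, for Hom 43 and 424. Called in all 3 genotypes were 3 higher and 78 lower genes. The genes higher in Dnmt1 RIP in every genotype had medians of 1.86, 1.72 and 1.67 (log2 fold change) within WT, Het and Hom, and those higher in m5C RIP had -1.81, -1.34 and -1.64. These medians describe genes chosen for their direction.

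No gene passed the test of whether the antibody difference depends on genotype. The interaction gave 0 calls with edgeR and 146 genes at an unadjusted p under 0.05, and DESeq2 gave 0 calls and 77 genes. The 5 smallest p belonged to B3gat2, Tnfaip2, Pim1, Lmf2 and Metrnl. B3gat2, a glucuronyltransferase gene with the smallest of these, was low: it stood at 9.02, 0.49 and 0 CPM in WT, Het and Hom m5C RIP. In Dnmt1 RIP it was 0 and 2.27 CPM in WT, 17.1 and 13.1 CPM in Het, and 15.2 and 30.8 CPM in Hom, below m5C RIP in WT and above it in Het and Hom, and the interaction did not pass the adjustment. Lmf2, a lipase maturation factor, stood at 178, 140 and 147 CPM in WT, Het and Hom m5C RIP and at 3.54 to 43.2 CPM (median 28.6) in Dnmt1 RIP, below in all 6 libraries.

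The 4 dominant transcripts, listed as ribosomal-RNA-overlapping and dominant transcripts, were not called. Whether their reads came from these genes or from ribosomal RNA was not tested. Lars2, a mitochondrial tRNA synthetase gene, alone held 57.7% of Dnmt1 RIP Hom 1 and 0.238% of Het 2, and its log2 fold change was 1.90 ± 2.08 (edgeR adjusted p = 0.472). Gm42418, Gm26917 and Gm10800 did not pass either, at adjusted p of 0.219, 0.53 and 0.173, while DESeq2 called 1 of the 4. Leaving the 4 out of the totals gave 2714 genes higher in Dnmt1 RIP and 3244 higher in m5C RIP.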

How the data were processed

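The authors deposited raw gene counts for each library, over 31017 symbols. The submitters' processing notes list Trim Galore 0.4.1, HISAT2, featureCounts and the mm10 build. For the precipitated RNA the labels' protocols mention rRNA depletion as well as polyA selection, without assigning either to a library. Groups come from the titles. The 5 entries naming no gene were dropped, and 30532 symbols matched GENCODE M21.

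Genes passed filterByExpr by antibody in edgeR 4.0.16 (R 4.3.3; minimum count 10, minimum total count 15). TMM scaling and the quasi-likelihood test (glmQLFit, glmQLFTest) with genotype as a block left 5 residual degrees of freedom and a common biological coefficient of variation of 0.374; p-values were adjusted over 12736 genes. Tests within genotypes and of the interaction used 6 groups, with 3 residual degrees of freedom. Each SE is the size of the log2 fold change over the square root of its F. The fit was also run on simulated counts in which all genes shared the same spread and few genes differed. The real libraries differ from that setting, so the simulation does not give the error rate here. Alternatives were DESeq2 1.42.0, other scalings and filters, no block, each library left out, m5C WT 1 added, a test against 2-fold (glmTreat) and subsets of genes and libraries.

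Members, lists and rules were chosen with earlier results of these data known. Named genes are the 12 largest differences per direction among genes differing in every genotype with a mean of at least 20 CPM in the higher antibody, without placeholder names; up to 4 members per list with the smallest p; the 5 smallest interaction p; and Dnmt1, Xist, Ddx3y and the dominant transcripts. Other list members, and Uhrf1, Malat1, Eif4g2, Hnrnpa2b1 and Ybx1, were chosen after their values were seen. Values of some list members are not reported here.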

Additional observations from a re-analysis of the deposited data

Results flagged for a closer look

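Among the 6 Dnmt1 RIP libraries, 32 measures and genes were examined for a single library far from the others (a gap to the nearest library, relative to the range, above Dixon's 95% critical value). This was so for 13. Chance gives about 1 in 20 for independent normal values, which CPM of related genes chosen for large differences are not, so the number is a description. Het 2 stood high in macrophage markers, at 54.8% of the fibroblast m5C level against 1.11 to 12.9% in the others. It was also high in Bgn (1421 CPM against 7.08 to 372), Spp1 (834 against 14.2 to 199), Thbs4 (419 against 7.08 to 79.3), Fcer1g (190 against 0 to 29.5) and Serpinf1 (355 against 11.4 to 127). Het 1 stood high in Col1a1 (11245 CPM against 117 to 3090), Lox (656 against 0 to 216) and Pnck (336 against 15.2 to 38.5). WT 2 stood high in Hrh2 (861 CPM against 11.1 to 68.5) and Fbll1 (211 against 5.02 to 39.5). Hom 1 held 57.7% of its counts in Lars2 against 0.238 to 7.07%, and Hom 2 held 7931 CPM of Dnmt1 against 1615 to 3090. Without m5C WT 2 the adjusted p of Fbll1 was 0.0944 and that of Pnck 0.064, and without m5C Het that of Pnck was 0.151.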

How the results depend on the processing

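No paired analysis was possible because, in the labels, only WT m5C 2 shares a number with the Dnmt1 RIP libraries; the Het and Hom m5C titles carry none. Leaving out each library in turn gave 1515 to 2949 genes higher in Dnmt1 RIP and 1781 to 3131 higher in m5C RIP, and 1512 to 2823 and 1777 to 3020 in every genotype; the lowest came without m5C WT 2. Total counts alone gave 1718 and, in every genotype, 1541 genes higher in m5C RIP. A test against 2-fold gave 1057 and 1058, and 1043 and 1052 in every genotype. Without the filter on low counts 2247 and 3988 were called, 36% of calls being higher in Dnmt1 RIP against 49.7%, and 1776 and 3699 held in every genotype. Among alternatives added after the data were seen, genes under 5 CPM in cortex gave 362 and 328, with 289 and 306 in every genotype, and Dnmt1 RIP WT 1, Het 2 and Hom 1 alone gave 1835 and 1770, with 1834 and 1770 in every genotype. Within genotypes, the 3 Hom libraries alone gave 308 and 1265; total counts gave 7 and 20 in WT and 2 and 56 in Hom; DESeq2 gave 180 and 528, 138 and 96, and 43 and 424. The Hox median turned from 1.04 to -0.79 with libraries numbered 1 alone and to -1.34 with WT 1, Het 2 and Hom 1, and the imprinted median to -0.26 without genes overlapped on the other strand. The causes were not tested. Over 154 named genes called, 3279 of 3415 values under the alternatives kept direction and call, 136 kept direction alone and 0 reversed. These genes were chosen from the main fit, mostly for large differences or small p, and the alternatives reuse its libraries. Most were therefore bound to keep their direction, and the count says little about other genes. Depth limits calls for low genes in Dnmt1 RIP WT 1, where 3 counts equal 13.8 CPM of the library's total and 10.6 CPM after TMM scaling.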

Other observations

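Among developmental regulators, the 39 Hox genes, of which 24 passed the filter on low counts, summed to 457 to 1000 CPM in Dnmt1 RIP and 321 to 369 CPM in m5C RIP, with the dominant transcripts left out. Hoxa5 was 12.1 to 38.5 CPM (median 22.7) against 5.41, 5.44 and 1.47 CPM in m5C RIP, a log2 fold change of 2.43 ± 0.60 (edgeR adjusted p = 0.0064). Hoxc13 was 47.8, 37.6 and 25.0 CPM in m5C RIP against 1.89 to 24.8 CPM. Host genes of the neuronal microRNA miR-124 rose: Mir124a-1hg was 70.8 to 129 CPM (median 88.0) against 19.8, 20.3 and 29.4 CPM. Ttn, the giant sarcomere protein of muscle, was 161 to 589 CPM (median 232) against 46.0, 57.8 and 67.5 CPM.

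Chromosome 6 stood apart, a pattern seen only after the data were examined. The median over its 699 tested genes was 0.47 (log2 fold change), and 0.50, 0.42 and 0.47 within WT, Het and Hom, against -0.31 to 0.23 on the 18 other autosomes and the X. There 30.9% of genes were higher in Dnmt1 RIP in every genotype, against 13.9 to 26.4% elsewhere.

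The left-out m5C WT library 1 holds 249780 counts beyond those of Hom. Of these, 8078 are counts of Dnmt1, or 69000 CPM without the dominant transcripts. In these counts the macrophage markers stood at 0.744% of their fibroblast m5C level, the fibroblast markers at 72% and the neuron markers at 12.8% of cortex.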
